A study of Rattus norvegicus with 24 samples.

Results

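The microRNAs (miRNAs) miR-144 and miR-451 are made in red blood cell precursors from 1 gene cluster on rat chromosome 10, and 3 of their mature strands were followed in rat serum: rno-miR-144-3p, rno-miR-144-5p and rno-miR-451-5p. They were chosen by name and position, as the strands of this cluster that enter the comparisons, with earlier results of these data known. They are 3 of 753 miRNA names in the count table and 3 of the 136 with enough reads to be tested. The serum came from male rats of the Wistar Kyoto strain, which received their diet from 4 weeks of age for 8 weeks and were then exposed for 4 h a day on 2 days; its small RNA was sequenced. The groups were fish oil diet with ozone (5 libraries), fish oil diet with air (6), normal diet with ozone (6) and normal diet with air (6). The fish oil diet held 6% fish oil by weight, the normal diet was the facility's chow, ozone was set to 0.8 ppm and measured at 0.8045 ppm, and air was filtered. The diets were separate products, so fish oil cannot be told apart from any other difference between them. The rats shared cages, and which rats shared a cage was not used here. Each library carries an animal number of its own, and the numbers of each group form a block apart from those of the others, so a batch in that order cannot be told apart from diet and exposure.

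As background, a miRNA is cut from a hairpin-shaped RNA, is held by an Argonaute protein, and pairs through its seed, bases 2 to 8 from the 5′ end, with messenger RNAs that it represses. In mouse, GATA1, the transcription factor that drives red cell development, switches on the shared transcript of both hairpins, and miR-451 is abundant in red cells. In mouse and zebrafish, miR-451 is cut by Argonaute 2 itself rather than by Dicer, and in mouse it represses Ywhaz, a signalling adaptor gene, in maturing red cells. Free miR-451 in serum is widely used as a sign of haemolysis, usually against miR-23a-3p, a miRNA that red cells hold little of.

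The mature strands are shown because their seeds tell which strands could share targets; capitals mark the seed, and the sequences are from RefSeq (GRCr8, plus strand).
miR-144-3p: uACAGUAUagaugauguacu
miR-144-5p: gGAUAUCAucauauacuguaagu
miR-451-5p: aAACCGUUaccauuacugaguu
These 3 seeds differ from each other, so the strands form 3 seed groups of 1 member each, although both strands of miR-144 come from the same hairpin. The hairpins are shown because they differ in how the mature strand lies in the fold; capitals mark the mature strands named above, and the positions are chr10:63459397-63459479 for Mir144 and chr10:63459569-63459640 for Mir451a.
Mir144: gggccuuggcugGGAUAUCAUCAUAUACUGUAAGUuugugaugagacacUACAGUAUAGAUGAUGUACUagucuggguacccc
Mir451a: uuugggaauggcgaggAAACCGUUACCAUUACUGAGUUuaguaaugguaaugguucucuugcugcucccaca
In the minimum-energy fold computed for Mir144 (83 bases, 33 base pairs, −37.5 kcal/mol), miR-144-5p and miR-144-3p lie opposite each other, 18 bases of each pair with the other strand, and neither reaches the terminal loop. In that of Mir451a (72 bases, 30 base pairs, −41.5 kcal/mol), miR-451-5p has 17 paired bases and runs through all 4 bases of the terminal loop. On the build of the deposited tables, rn5, miR-144-5p lies on chromosome 10 at 66340693 to 66340716, miR-144-3p at 66340730 to 66340750 and miR-451-5p at 66340869 to 66340891. Whether these positions start at 0 or 1 is not given in the files. The start of miR-451-5p is 176 bases after that of miR-144-5p, while the nearest other miRNA locus in the table, miR-632, is 1077814 bases away. In RefSeq's GRCr8 annotation the flanking genes are Flot2 and Eral1.

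The libraries held few miRNA reads, and the cluster took a small part of them. The total of miRNA counts per library was 23279 to 94264, with group medians of 32988 in fish oil ozone, 39570 in fish oil air, 63547 in normal ozone and 61722 in normal air. The 3 strands together took 0.0240% to 0.441% of a library's miRNA counts, with group medians of 0.131% in fish oil ozone, 0.123% in fish oil air, 0.0687% in normal ozone and 0.0820% in normal air. Levels below are in CPM, miRNA counts scaled to a common library size with TMM, the trimmed-mean method of edgeR, and 3 counts, taken as the lowest number that can be told from 0, amount to 28.3 to 117 CPM here. That floor and the counting errors below leave out PCR, whose copies without molecular identifiers are not independent molecules. As this is serum, more cells releasing a miRNA and more miRNA released per cell cannot be told apart.

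The strand miR-451-5p was the most abundant of the 3, with 677 reads over the 23 libraries, against 260 for miR-144-3p and 238 for miR-144-5p. In fish oil ozone rats 1, 3, 4, 5 and 6 it had 92.3, 986, 585, 1089 and 455 CPM. In fish oil air its lowest, median and highest levels were 360, 585 and 2049 CPM, in normal ozone 79.6, 419 and 738 CPM, and in normal air 219, 519 and 855 CPM. The 4 groups overlapped, and the lowest value of each ozone group stood below that of the air group on the same diet. Averaged over rats, the level was 642 ± 406 CPM in fish oil ozone (SD, n = 5), 837 ± 638 in fish oil air, 424 ± 275 in normal ozone and 547 ± 226 in normal air (SD, n = 6 each). Among the 136 miRNAs tested it ranked 96th, 82nd, 99th and 95th by mean CPM in those groups, and none of the tests below separated the groups. The opposite strand of its hairpin, miR-451-3p, had 9 reads in 4 libraries, 2 in fish oil ozone rat 5, 2 in fish oil air rat 5 and 3 and 2 in normal air rats 2 and 3, and was too rare to be tested.

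The strand miR-144-3p, whose seed ACAGUAU is the one usually credited with the targets of miR-144, was spread widest in fish oil ozone. There it had 61.6, 1085, 180, 545 and 334 CPM in rats 1, 3, 4, 5 and 6. In fish oil air its lowest, median and highest levels were 166, 206 and 464 CPM, in normal ozone 79.6, 131 and 266 CPM, and in normal air 53.8, 124 and 363 CPM. Fish oil ozone held the highest value of all, in rat 3, while its rat 1 was near the lowest of any group, so it overlapped every other group. The mean was 441 ± 403 CPM in fish oil ozone (SD, n = 5), 253 ± 115 in fish oil air, 154 ± 75.7 in normal ozone and 173 ± 125 in normal air (SD, n = 6 each).

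Its partner strand miR-144-5p separated the diets most clearly. In fish oil ozone rats 1, 3, 4, 5 and 6 it had 339, 559, 270, 272 and 273 CPM. In fish oil air its lowest, median and highest levels were 194, 288 and 546 CPM, in normal ozone 54.0, 115 and 242 CPM, and in normal air 78.1, 131 and 197 CPM. In CPM, every rat on fish oil after ozone was above every rat on the normal diet. In air the diets overlapped only between the lowest fish oil rat and the highest normal rats. The mean was 343 ± 124 CPM in fish oil ozone (SD, n = 5), 326 ± 125 in fish oil air, 126 ± 66.0 in normal ozone and 140 ± 48.0 in normal air (SD, n = 6 each).

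**Figure D1:**
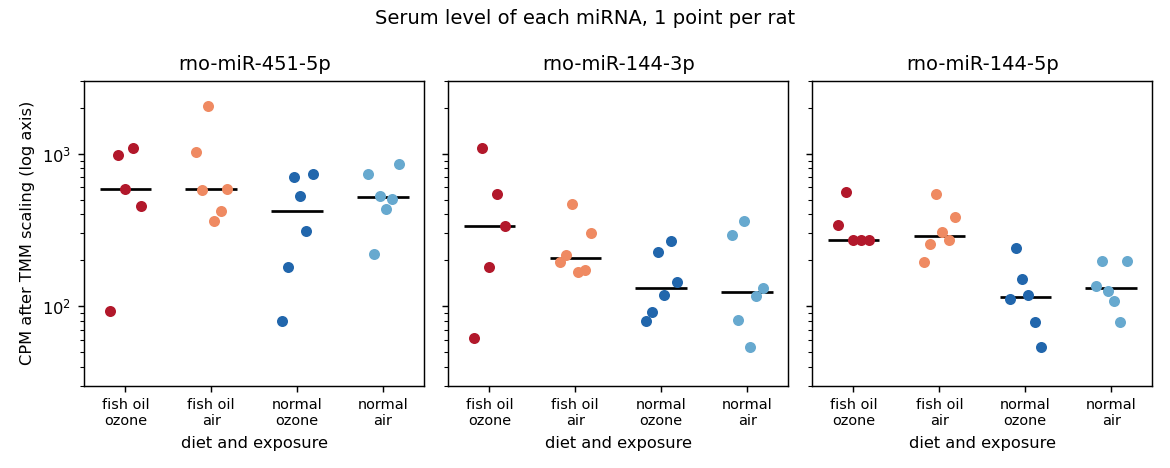
Level of each strand in serum, in CPM after TMM scaling on a log axis, with 1 point per rat and a line at the median of each diet and exposure group. For miR-144-5p the fish oil ozone rats sit at 270 CPM or more and the normal ozone rats at 242 CPM or less, while the groups overlap for miR-144-3p and miR-451-5p. On another scaling, the read total implied by the deposited values, the diet difference shrinks and the ozone groups overlap for miR-144-5p too.

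These levels rest on single-figure to double-figure counts. For miR-144-5p the fish oil ozone rats 1, 3, 4, 5 and 6 had 11, 17, 12, 7 and 9 reads, and summed over each group it had 56 reads in fish oil ozone, 80 in fish oil air, 46 in normal ozone and 56 in normal air. For miR-144-3p the fish oil ozone rats had 2, 33, 8, 14 and 11 reads, and the groups had 68, 62, 64 and 66 reads in the same order. For miR-451-5p the fish oil ozone rats had 3, 30, 26, 28 and 15 reads, and the groups had 102, 195, 178 and 202. For miR-144-3p the summed reads were nearly equal between groups, but fish oil ozone had 5 libraries and the others 6 each. Its mean counts per library were 13.6, 10.3, 10.7 and 11 in the same order, and rat 3 held 33 of the 68 fish oil ozone reads. The higher CPM of miR-144-3p on fish oil stands beside lower miRNA totals there, whose part in the result was not tested. Counting alone gives a coefficient of variation of 31.1% for miR-144-5p, 29.7% for miR-144-3p and 18.4% for miR-451-5p at their mean counts of 10.3, 11.3 and 29.4 reads. Within groups, the variance of the counts was 1.43 times that of Poisson counting for miR-144-5p, the lowest of the 136 miRNAs tested. It was 5.20 times for miR-144-3p and 11.1 times for miR-451-5p, against a median of 8.58 for all tested. This ratio grows with the mean count, whose median was 58.2 reads over all tested, so a low ratio does not show a steady level. The variation beyond counting, as edgeR estimates it partly across miRNAs, was 33.4% for miR-144-5p, 52.1% for miR-144-3p and 56.4% for miR-451-5p. Its median over all tested was 34.7%.

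**Figure D2:**
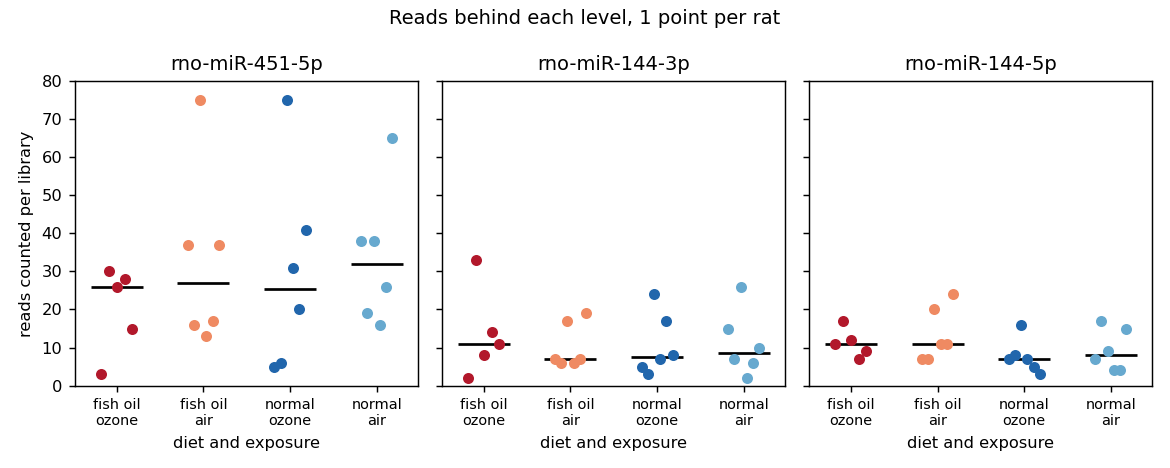
Reads counted for each strand in each library, with 1 point per rat and a line at the median of each diet and exposure group. Fish oil ozone rat 3 has 33 reads of miR-144-3p, and 1 rat each of fish oil air and normal ozone reaches 75 reads of miR-451-5p.

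The first question was whether the diet shifted the cluster. Averaged over both exposures, miR-144-5p rose on fish oil by a log2 fold change of 1.32 (SE 0.28), which is 2.50-fold, with an adjusted p of 0.000656 in the edgeR quasi-likelihood test with Benjamini-Hochberg adjustment over all 136 miRNAs. It was above the normal-diet mean of log2 CPM at the same exposure in 11 of 11 fish oil rats. Only 2 of the 136 miRNAs had a larger positive change. For levels, counts of rats above a mean use the mean of log2 CPM here and below, which stands for a lower level than the mean CPM given above. The other strand, miR-144-3p, rose by 0.98 (SE 0.37, 1.97-fold, edgeR adjusted p = 0.0322), with 10 of 11 rats above the normal mean. For miR-451-5p the change was 0.58 (SE 0.36, 95% interval −0.12 to 1.28, edgeR adjusted p = 0.209), with 8 of 11 rats above the normal mean, so a difference was not shown, while that interval holds the change of miR-144-3p and ends just below that of miR-144-5p. Thus 2 of 3 strands, both from the same hairpin, rose, where 19.9% of all miRNAs tested rose and 16.9% fell. The median over all tested was 0.061. In a fit of the normal-diet groups alone, neither strand of miR-144 passed the low-count filter. Both therefore entered the 136 only with the fish oil libraries, where they are high, so the shares stand as description and test nothing.

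The call for miR-144-3p rested on single libraries. It was lost without any 1 of 11 of the 23 libraries, which were fish oil ozone 3 and 5, fish oil air 3 and 6, normal ozone 1, 2 and 4, and normal air 2, 4, 5 and 6, at edgeR adjusted p-values of 0.0582 to 0.218. Without fish oil ozone 3 the change was 0.58. With both fish oil libraries numbered 3 left out, a choice made after seeing the data, it was 0.45 (edgeR adjusted p = 0.348), while miR-144-5p was at 1.07 (edgeR adjusted p = 0.00341) and miR-451-5p at 0.14 (edgeR adjusted p = 0.802). For miR-144-5p no single library ended the call, with changes of 1.18 to 1.42. Without the low-count filter, miR-144-3p was at 0.88 (edgeR adjusted p = 0.0591).

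Scaling set the size of the diet difference. RPM, the authors' other unit, scales reads to another total, and its values are relative to a read total far above the miRNA counts; that total, worked out from counts and RPM and called the implied read total, was 2243916 to 7729948 per library. On it the median of all tested miRNAs moved to −0.87 for fish oil averaged over exposures, and none of the 3 strands passed the test: miR-144-5p was at 0.57 (edgeR adjusted p = 0.238), miR-144-3p at 0.081 (edgeR adjusted p = 0.900) and miR-451-5p, now with the opposite sign, at −0.26 (edgeR adjusted p = 0.644). A change of library totals moves all miRNAs by nearly the same amount, so position against the median and rank could hardly change and test nothing. Relative to that median all 3 strands stood higher. By rank among the 136 changes miR-144-5p was the 3rd from the top by TMM and the 2nd on the implied total, miR-144-3p the 13th and the 12th, and miR-451-5p the 31st and the 25th. Mean RPM of miR-144-5p was 3.11 in fish oil ozone, 2.56 in fish oil air, 1.76 in normal ozone and 1.95 in normal air. Mean RPM of miR-144-3p was 4.35, 2.04, 2.76 and 2.86 in those groups, and that of miR-451-5p was 5.78, 7.13, 7.69 and 7.57. In air the higher mean of miR-144-5p rests on fish oil air 3, at 6.16 RPM, as the median RPM was 1.72 in fish oil air and 1.87 in normal air. After ozone its median was 2.02 RPM in fish oil ozone and 1.54 RPM in normal ozone. The rats of these groups overlapped in RPM, at 1.47 to 7.49 in fish oil ozone and 1.01 to 2.78 in normal ozone.

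After ozone, the diets differed in both strands of miR-144. On fish oil, miR-144-5p rose by 1.47 (SE 0.41, 2.76-fold, edgeR adjusted p = 0.0108, 5 of 5 rats above the normal ozone mean) and miR-144-3p by 1.43 (SE 0.53, 2.69-fold, edgeR adjusted p = 0.0465, 4 of 5 rats). For miR-451-5p the change was 0.55 (SE 0.53, 95% interval −0.48 to 1.58, edgeR adjusted p = 0.454). The 2 of 3 strands that rose compare with 12.5% of all miRNAs tested that rose and 10.3% that fell. Again both strands of miR-144 entered the miRNAs tested only with the fish oil libraries, so these shares are description. Without fish oil ozone 3, miR-144-5p was at 1.19 (edgeR adjusted p = 0.0685) and miR-144-3p at 0.67 (edgeR adjusted p = 0.391). The call for miR-144-3p was lost without any 1 of 16 libraries, namely fish oil ozone 3, 5 and 6, fish oil air 1, 2, 4, 5 and 6, normal ozone 1, 2, 4 and 6, and normal air 1, 4, 5 and 6, at edgeR adjusted p-values of 0.0505 to 0.391. On the implied read total both missed the threshold, and without the low-count filter they were at 1.39 for miR-144-5p (edgeR adjusted p = 0.0624) and 1.33 for miR-144-3p (edgeR adjusted p = 0.0611); miR-144-3p also missed it with RLE scaling, at 1.41, and with total counts, at 1.44.

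In air, none of the 3 strands passed the test, where 0.735% of all miRNAs tested rose and 5.15% fell. With fish oil, miR-144-5p was at 1.18 (SE 0.38, 95% interval 0.43 to 1.92, unadjusted p = 0.00409, edgeR adjusted p = 0.0533), and all 6 fish oil rats were above the normal air mean. It was the 1 strand of 3 with an unadjusted edgeR p under 0.05, where 39 of all 136 miRNAs tested had one. DESeq2 called miR-144-5p at 1.21 (adjusted p = 0.0286), and edgeR called it with either fish oil ozone 3 or fish oil air 1 left out. For miR-144-3p the change was 0.53 (SE 0.51, 95% interval −0.47 to 1.54, edgeR adjusted p = 0.484), again with 6 of 6 rats above the mean of log2 CPM. Of these, fish oil air 4, at 166 CPM, was below the normal air mean of 173 CPM. For miR-451-5p the change was 0.61 (SE 0.49, 95% interval −0.35 to 1.57, edgeR adjusted p = 0.401). Calls after ozone and not in air do not show that the diet acted differently, and that difference is the interaction given below.

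**Figure D3:**
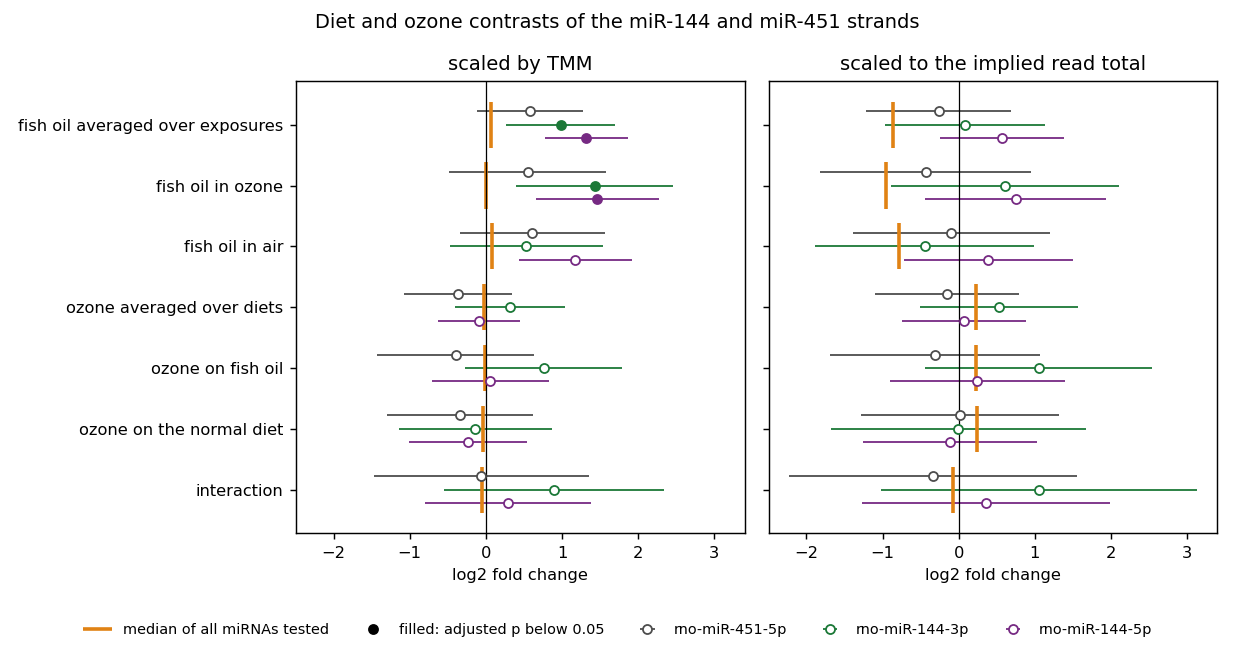
Log2 fold change of each strand in the 7 contrasts, scaled by TMM on the left and to the implied read total on the right, with bars for 95% intervals, filled points where the edgeR adjusted p is below 0.05, and an orange line at the median of all tested miRNAs. Filled points appear on the left only, for miR-144-5p and miR-144-3p with fish oil averaged over exposures and with fish oil in ozone; on the right the orange line for fish oil averaged over exposures stands at −0.87.

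The second question was whether ozone shifted the cluster, and no strand passed the test. Averaged over diets, the change with ozone was 0.31 for miR-144-3p (SE 0.37, 95% interval −0.41 to 1.03, edgeR adjusted p = 0.916), −0.088 for miR-144-5p (SE 0.28, 95% interval −0.63 to 0.45, edgeR adjusted p = 0.975) and −0.37 for miR-451-5p (SE 0.36, 95% interval −1.07 to 0.34, edgeR adjusted p = 0.916). Without fish oil ozone 3 the value of miR-144-3p was −0.080. None of the 3 strands had an unadjusted p under 0.05 by edgeR, DESeq2 or limma, and 0.735% of all miRNAs tested were called in either direction. On fish oil alone, miR-144-3p was at 0.76 with ozone (SE 0.53, 95% interval −0.27 to 1.79, edgeR adjusted p = 0.727), and without fish oil ozone 3 that value was 0.0096. There miR-144-5p was at 0.058 (SE 0.39, edgeR adjusted p = 0.983) and miR-451-5p at −0.40 (SE 0.53, edgeR adjusted p = 0.889). On the normal diet the changes with ozone were −0.14 for miR-144-3p, −0.23 for miR-144-5p and −0.34 for miR-451-5p, with edgeR adjusted p-values of 0.939 or above. In both of these contrasts 0% of all miRNAs tested were called, and again no strand had an unadjusted p under 0.05 by edgeR, DESeq2 or limma.

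The interaction asks whether the change with ozone differed between the diets. It was 0.90 for miR-144-3p (SE 0.74, 95% interval −0.55 to 2.34, edgeR adjusted p = 0.916), 0.29 for miR-144-5p (SE 0.56, edgeR adjusted p = 0.947) and −0.059 for miR-451-5p (SE 0.72, edgeR adjusted p = 0.980). No strand passed, none had an unadjusted p under 0.05 by edgeR, DESeq2 or limma, and 0% of all miRNAs tested were called.

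Ratios of strands within a library do not depend on the scaling, so 4 of them were tested in 6 contrasts by exact two-sided permutation tests of log2 ratios, with 0.5 added to each count. None of the 24 passed after Benjamini-Hochberg adjustment, where the lowest adjusted p was 0.609, and 1 had an unadjusted exact p under 0.05. That was miR-144-3p to miR-451-5p with ozone averaged over diets, higher by 0.70 (SE 0.32, exact permutation p = 0.0388, adjusted p = 0.609, 8 of 11 ozone rats above the air mean on their diet). Its group means were −0.68 ± 0.67 in fish oil ozone (SD, n = 5), −1.50 ± 0.58 in fish oil air, −1.18 ± 0.96 in normal ozone and −1.77 ± 0.85 in normal air (SD, n = 6 each). With fish oil averaged over exposures, miR-144-5p to miR-451-5p was higher by 0.82 (SE 0.51, exact permutation p = 0.119) and miR-144-5p to miR-144-3p by 0.43 (exact permutation p = 0.323). So the tests that do not depend on scaling did not separate the 3 strands from each other.

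The haemolysis index, miR-451-5p to miR-23a-3p, had log2 means of −2.19 ± 1.29 in fish oil ozone (SD, n = 5), −1.88 ± 0.64 in fish oil air, −2.79 ± 1.07 in normal ozone and −2.14 ± 0.56 in normal air (SD, n = 6 each). It differed by 0.43 with fish oil averaged over exposures (exact permutation p = 0.281) and by −0.48 with ozone averaged over diets (exact permutation p = 0.216). In every group the mean was below 0, as miR-451-5p had 677 reads in all and miR-23a-3p had 2853. The part of red cell breakage in the levels of miR-144 was not tested beyond these values.

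From rat to rat, miR-144-3p varied together with miR-451-5p, and with its own partner strand it did so past the test on the implied read total but not by TMM. Over the 23 libraries the log2 CPM of miR-144-3p and miR-451-5p had a Pearson r of 0.667 (permutation p = 0.00061, adjusted p = 0.00332) and a Spearman rho of 0.662 (permutation p = 0.00083, adjusted p = 0.00332). With group means subtracted, r was 0.694 (adjusted permutation p = 0.00332) and rho 0.650, and without the 2 libraries farthest from the median of miR-144-3p, r was 0.652 over all libraries and 0.568 with group means subtracted. For miR-144-3p and miR-144-5p, r was 0.465 (permutation p = 0.0245, adjusted p = 0.0587) and rho 0.426, and without the 2 farthest libraries, fish oil ozone 3 and 5, r was 0.282; with group means subtracted, r was 0.204 (permutation p = 0.356). For miR-144-5p and miR-451-5p, r was 0.226 (permutation p = 0.300, adjusted p = 0.475) and rho 0.209, and with group means subtracted, r was 0.015.

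The adjustment covers 12 coefficients, from 3 pairs, 2 versions and 2 coefficients each, and the differences between them were not tested. On the implied read total all 3 pairs passed. There r was 0.799 for miR-144-3p with miR-451-5p (adjusted permutation p = 3e-05) and 0.838 with group means subtracted (adjusted permutation p = 3e-05), both from the smallest p that the permutations can give. For the partner strands it was 0.668 (adjusted permutation p = 0.00149), and 0.690 with group means subtracted (adjusted permutation p = 0.00216). For miR-144-5p with miR-451-5p it was 0.504 (adjusted permutation p = 0.0157), and 0.580 with group means subtracted (adjusted permutation p = 0.00728). So only the relation of miR-144-3p with miR-451-5p passed on both scales. On the implied read total some miRNAs outside the cluster also reached such values. There the Spearman rho of miR-144-3p was 0.846 with miR-451-5p, 0.841 with miR-126a-3p and 0.507 with miR-101b-3p. That of miR-144-5p was 0.589 with miR-144-3p and 0.739 with miR-30e-5p. High coefficients on that scale were thus not particular to the cluster. The strands of a library share its scaling and its depth, and their part in these coefficients was not tested.

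**Figure D4:**
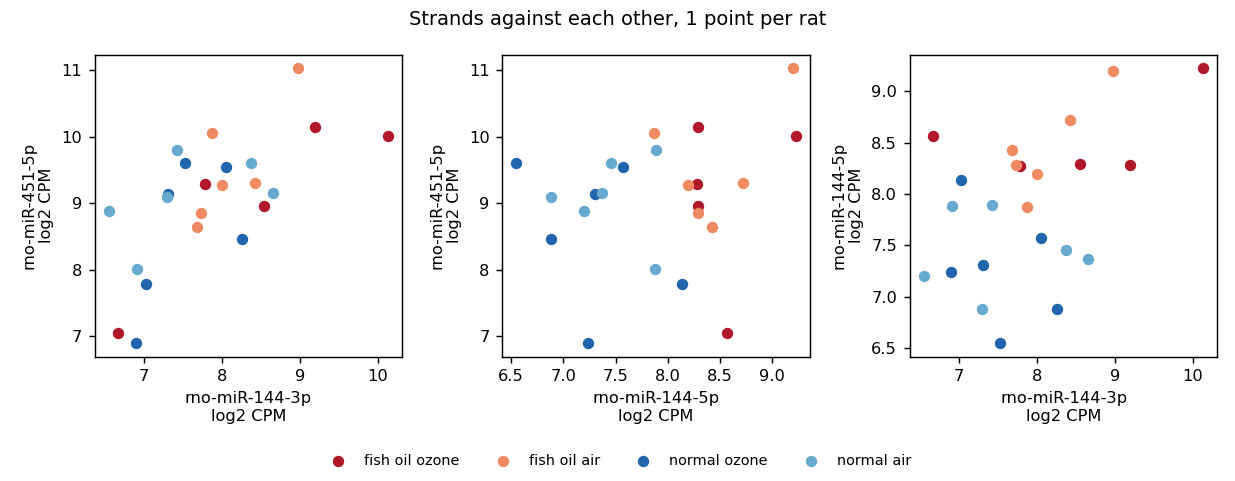
Log2 CPM of each strand against another, with 1 point per rat, coloured by diet and exposure group. The points run along a slope for miR-144-3p and miR-451-5p (r = 0.667 over 23 libraries) and scatter widely for miR-144-5p and miR-451-5p (r = 0.226); on the implied read total, not drawn here, these were 0.799 and 0.504.

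Among all other miRNAs tested, those most like each strand across the 23 libraries were taken by Spearman rho of log2 CPM, as a description with no test. For miR-144-3p they were miR-16-5p (0.680), miR-451-5p (0.662) and miR-140-5p (0.659), and with group means subtracted miR-16-5p (0.788), miR-142-5p (0.720) and miR-451-5p (0.650). For miR-451-5p they were miR-30c-5p (0.663), miR-144-3p (0.662) and miR-16-5p (0.611), and with group means subtracted miR-30c-5p (0.797), miR-27a-3p (0.667) and miR-144-3p (0.650). For miR-144-5p they were miR-10b-5p (0.745), miR-101a-3p (0.694) and miR-30e-5p (0.687). With group means subtracted the highest for miR-144-5p was 0.349, for miR-21-5p. Thus each of miR-144-3p and miR-451-5p is among the 3 nearest of the other, and miR-144-5p is among those of neither. The within-group variance of miR-144-5p was only 1.43 times that of counting. The part of counting in its low coefficients, here and above, was not tested, so they do not show that it varies apart from its cluster.

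Other miRNAs that share seed letters with the cluster were compared because they could share targets. Among the 694 mature sequences compared, bases 2 to 7 of miR-144-3p are also those of miR-101a-3p and miR-101b-3p, shown with these letters in capitals. No other of these sequences shares bases 2 to 7 with miR-144-5p or miR-451-5p. Names in the count table without such a sequence were not compared.
miR-101a-3p: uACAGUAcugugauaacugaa
miR-101b-3p: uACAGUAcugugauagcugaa
These relatives part from miR-144-3p at base 8, where the full seed ends. With fish oil averaged over exposures, miR-101a-3p rose by 0.91 (SE 0.22, edgeR adjusted p = 0.00200, 11 of 11 rats above the normal mean), and on the implied read total it was at 0.029 (edgeR adjusted p = 0.947). For miR-101b-3p the change was 0.23 (edgeR adjusted p = 0.518), and on the implied read total it was at −0.65. The mean count per library was 88.0 for miR-101a-3p and 79.7 for miR-101b-3p, well above the 11.3 of miR-144-3p. The 2 relatives differ by 1 base, so how reads that match both were counted bears on these values, and this is not given in the sources used here.

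Other red cell miRNAs were read from a list of 15 names that holds none of the 3 strands, of which 11 were tested. In the fish oil average, 0 of the 11 rose, 3 fell and 8 did not pass by edgeR, where 19.9% of all miRNAs tested rose and 16.9% fell. On the other 4 scalings 0 of 11 rose and 1 to 8 fell; the 8 fell on the implied read total, where 70 of all 136 fell and 1 rose. The median of the list was −0.085, against 0.061 for all tested. Those that fell were miR-92a-3p at −1.09 (edgeR adjusted p = 0.000656), miR-363-3p at −1.09 (edgeR adjusted p = 0.0216) and miR-185-5p at −0.80 (edgeR adjusted p = 0.0300). Of these, miR-363-3p and miR-185-5p missed the threshold on the total miRNA count. On that total without the 5 most abundant miRNAs, miR-185-5p missed it again (edgeR adjusted p = 0.0517). The abundant miR-16-5p was at 0.063 (edgeR adjusted p = 0.778), and miR-486 was not analysed here. The summed level of the 11 was 47802 to 84985 CPM in fish oil ozone, 57911 to 87040 in fish oil air, 67600 to 98597 in normal ozone and 59900 to 102760 in normal air. So none of this list rose past the test where the strands of miR-144 did.

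Platelet and white cell miRNAs were read in the same way, since serum holds the release of these cells too. Of 9 platelet miRNAs tested, 2 rose with fish oil averaged over exposures, miR-199a-3p at 1.20 and miR-126a-3p at 1.06, 3 fell, with miR-191a-5p at −1.54, miR-223-3p at −0.80 and miR-26a-5p at −0.37, and 4 did not pass, with edgeR adjusted p-values of 0.0270 or below for those named. Over all tested, 19.9% rose and 16.9% fell, so the share that rose is near the background, and the median of the list was 0.022, against 0.061 for all tested. On the total miRNA count miR-223-3p and miR-26a-5p missed the threshold, and they did so too on that total without the 5 most abundant miRNAs. On the implied read total neither miR-199a-3p, at 0.36, nor miR-126a-3p, of the opposite sign at −0.0022, passed. The summed platelet level was 173910 to 213250 CPM in fish oil ozone, 173440 to 268260 in fish oil air, 298520 to 425480 in normal ozone and 282990 to 435500 in normal air, so on each exposure every fish oil rat was below every normal rat. Much of that sum is miR-191a-5p, which fell, with a mean count of 9517 per library, against 2274 for the next, miR-22-3p. Of 6 white cell miRNAs tested, 2 rose, miR-29a-3p at 0.68 and miR-181a-5p at 0.51, both with the opposite sign on the implied read total, 0 fell and 4 did not pass, with edgeR adjusted p-values of 0.0209 or below for those named, against the same 19.9% and 16.9% over all tested. The median of this list was 0.32. Their summed level was 16421 to 30115 CPM in fish oil ozone, 15068 to 23784 in fish oil air, 12036 to 21502 in normal ozone and 14257 to 17155 in normal air. On fish oil the median miRNA total and the platelet sum, which miR-191a-5p leads, were thus lower and the median white cell sum higher, where miR-144-5p and miR-144-3p were higher, and their part in that result was not tested.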

How the data were processed

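Serum small RNA of 23 rats was read for 50 cycles from 1 end, after 10 ng of RNA from 100 µl of serum entered the library kit, per the labels' protocols; rat 2 of the fish oil ozone group was not used here. The deposited table of expected counts lists reads per mature locus, and 50 of 832 loci hold fractions. The deposited RPM values are the counts scaled to a total that is not stated, plus 0.0001. The tools, per the submitters' processing notes, were Bowtie 1.0.0, Partek and bcl2fastq, and the build was rn5. Not given in the sources used here are the annotation, filters, strand and the handling of reads with several matches.

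Expected counts were summed per miRNA name and rounded, giving 753 names. The edgeR 4.0.16 filterByExpr filter (minimum count 10, minimum total 15) left 136. The quasi-likelihood F test (two-sided, robust, TMM, 1 mean per group) in R 4.3.3 gave 7 contrasts, adjusted by Benjamini-Hochberg over the 136, with a threshold of 0.05. The 95% intervals take the log2 fold change as normal with its SE. Ratios used exact permutation, and correlations used 100000 permutations, within groups for the centred values. Hairpins were folded with RNAfold 2.7.2. Alternatives were 4 other scalings, no filter, DESeq2 1.42.0, limma 3.58.1 on log2 RPM with pseudocounts of 1 and 0.1, fits of the compared groups only, ratio pseudocounts of 1 and 2, and leaving out each library. The fit was tested on simulated data.

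The members and lists were chosen with earlier results of these data known. Named were the members, the called miRNAs of each list with the smallest p (at most 3 per direction), miR-16-5p, miR-23a-3p, the 3 miRNAs most like each member, the seed relatives, and the other strands of the hairpins. Replicate numbers follow animal numbers that differ between groups, so no rats were paired.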

Additional observations from a re-analysis of the deposited data

Results flagged for a closer look

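Among 28 sets of levels or ratios within 1 group, 2 held a library far from the others by Dixon's 95% limit, and chance flags about 1 in 20 such sets. For miR-144-5p, fish oil ozone 3 had 558.9 CPM and the next highest rat of that group 338.6 CPM, a gap of 0.763 of the group's range, where the limit for 5 libraries is 0.710. For the log2 ratio of miR-144-5p to miR-451-5p, normal air 2 stood at −0.156 and the next highest rat of that group at −1.87, a gap of 0.715 of the range, where the limit for 6 libraries is 0.625.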

How the results depend on the processing

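Of the alternative values, 1374 kept direction and call or, for totals of calls, stayed close. Another 49 lost a call, 9 gained one, 45 changed sign and 43 were totals of calls that moved. Most of the 1374 belong to results that had no call to lose, such as the ozone contrasts and the ratios. That number therefore does not measure how firm the calls were. The exceptions follow as log2 fold changes, and their cause was not tested. Fish oil averaged over exposures: on the implied read total miR-144-3p was at 0.081, miR-144-5p at 0.57 and miR-451-5p at −0.26; with limma on RPM they were at 0.039, 0.34 and −0.27 (pseudocount 1) and 0.055, 0.49 and −0.34 (pseudocount 0.1); without the low-count filter miR-144-3p was at 0.88.

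Fish oil in ozone: on the implied read total they were at 0.61, 0.75 and −0.43; with limma at 0.20, 0.44 and −0.27 (pseudocount 1) and 0.17, 0.60 and −0.34 (pseudocount 0.1). There miR-144-3p lost its call with RLE scaling (1.41), total counts (1.44), total counts without the 5 most abundant miRNAs (1.47), no filter (1.33) and the compared groups alone (1.42), and miR-144-5p with no filter (1.39). Fish oil in air: miR-144-5p passed with total counts (1.42), without the 5 most abundant (1.33) and with DESeq2 (1.21). There the implied read total gave −0.45 for miR-144-3p and −0.10 for miR-451-5p, and limma −0.12 and −0.26 (pseudocount 1) and −0.059 and −0.33 (pseudocount 0.1).

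Ozone: with ozone averaged over diets miR-144-5p was at 0.068 on the implied read total and at 0.075 and 0.13 with limma. With ozone on fish oil miR-144-5p was at −0.092 by total counts, −0.051 without the 5 most abundant and −0.0013 in the compared groups alone. With ozone on the normal diet miR-451-5p was at 0.021 on the implied read total, and with limma miR-144-3p was at 0.13 and 0.26 and miR-144-5p, with pseudocount 0.1, at 0.026. In the fits of the compared groups alone in air and on the normal diet, the miR-144 strands did not pass the filter and have no value.

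The number of all miRNAs called with fish oil in air was 8, and was 14 by total counts, 15 without the 5 most abundant, 38 on the implied read total, 15 by DESeq2 and 32 and 31 by limma. In ozone it was 31, and 48 and 49 by limma. With ozone averaged over diets it was 1, and 0 on every other scaling and with limma. With ozone on the normal diet it was 0, and 1 by DESeq2. With both fish oil libraries numbered 3 left out, an alternative chosen after seeing the data, miR-144-3p was at 0.45 with fish oil averaged over exposures and 0.68 in ozone, the interaction of miR-451-5p was 0.15, and the calls were 19 with fish oil in ozone and 0 with ozone averaged over diets.

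Leaving out each library in turn gave, for miR-144-3p, 0.58 to 1.20 with fish oil averaged over exposures, 0.67 to 1.71 with fish oil in ozone, −0.080 to 0.48 with ozone averaged over diets and −0.33 to 0.21 with ozone on the normal diet. For miR-144-5p it gave 0.99 to 1.31 with fish oil in air, 1.19 to 1.67 in ozone, −0.22 to 0.020 with ozone averaged over diets and −0.21 to 0.26 on fish oil. For miR-451-5p it gave −0.74 to 0.095 with ozone on fish oil and −0.39 to 0.41 for the interaction. Log2 ratios of miR-144-5p to miR-144-3p ranged from −0.10 to 0.73 with fish oil in ozone, −0.77 to 0.019 with ozone on fish oil and −0.54 to 0.046 on the normal diet, that of miR-144-5p to miR-451-5p from −0.028 to 0.78 with ozone on the normal diet, and that of miR-451-5p to miR-23a-3p from −0.72 to 0.081 with ozone on fish oil. Calls over all miRNAs were 3 to 15 with fish oil in air, 12 to 34 in ozone, 0 to 1 with ozone averaged over diets and 0 to 1 on the normal diet. The centred correlation of miR-144-5p with miR-451-5p was −0.061 without the 2 farthest libraries. On the implied read total the correlations of miR-144-5p passed that did not by TMM, at 0.668 and, centred, 0.690 with miR-144-3p, and at 0.504 and 0.580 with miR-451-5p.

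No paired analysis was possible because animal numbers differ between groups and pair no rats. The spread within groups, as a variance, was 1.43 times that of counting for miR-144-5p, 5.20 times for miR-144-3p and 11.1 times for miR-451-5p. Counting thus made up the largest share of the spread for miR-144-5p. The counting error itself was nearly the same for the strands of miR-144, at 31.1% for miR-144-5p and 29.7% for miR-144-3p.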
